A study of Homo sapiens with 6 samples.

Results

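The 26 genes described here make cholesterol, control its making or move it within the cell. They were chosen by name as genes of the pathway, with earlier results of these data known, 19 as enzymes in pathway order and 7 apart as regulators and transport genes, and all 26 were among the 13548 genes with enough counts to be tested, of 35106 in the table. The HCT116 line, derived from a human colorectal carcinoma, is given as wild type in the labels and was grown in DMEM with fetal bovine serum, which brings lipoprotein cholesterol to the cells. Messenger RNA was sequenced from 3 libraries labelled control, with no treatment, and 3 libraries labelled shikonin, a naphthoquinone from the roots of the gromwell family. The labels give 8 μM shikonin for 24 h, the paper's methods give a lower dose for the same time, and whether control cells received the solvent is not stated. Every direction below follows the sample labels.

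Cells make cholesterol from acetyl-CoA through mevalonate, isoprenoid diphosphates, squalene and lanosterol. SREBP2, the product of SREBF2, is a transcription factor held in the endoplasmic reticulum membrane by SCAP and the INSIG proteins while sterol is plentiful. When sterol falls, SCAP escorts it to the Golgi, where proteases release the part that enters the nucleus and switches on the genes of the pathway, INSIG1 among them, so the control loop closes on itself. A change in messenger RNA of these genes is therefore widely used as a readout of sterol supply, but neither sterols nor the cleaved protein were measured in these libraries.

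Library totals ranged from 18845690 to 21765806 estimated counts, and the scaling factors beside them from 0.9589 to 1.0261. Levels are given in CPM, counts scaled to a common library total with those factors. Fold changes come from edgeR's quasi-likelihood test on rounded counts. A call means a Benjamini-Hochberg adjusted p under 0.05, taken over all 13548 genes. Separate cultures are not stated for the replicates, and the p-values thus cover library-to-library spread, which may be technical. The epithelial markers EPCAM, KRT8, KRT18 and CDH1 were present in both groups with no call, VIL1 was listed at 0, and 8 of the 11 immune, fibroblast and endothelial markers were under the filter, at or near 0. The other 3 had no call, COL1A1 at 26.5 to 35.1 CPM, CD14 at about 1 CPM in both groups (1.05 and 1.07) and VWF at 1.54 ± 0.255 CPM in control and 0.909 ± 0.400 CPM in shikonin (SD, n = 3 each), where every shikonin library lay below every control. RNA was from the whole culture, in which fewer cells of a kind and less RNA per cell cannot be told apart.

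Of the 26 genes, 5 rose in the shikonin treatment group, namely INSIG1, SREBF2, SQLE, DHCR7 and MSMO1, and 1 fell, TM7SF2. The other 20 did not pass the test. The 5 that rose are 19.2% of the members, beside 10.8% of all genes tested, and the 1 that fell is 3.85%, beside 11.1% of all genes tested. With counts this small, the share that rose stands somewhat above the background and the share that fell below it, and no test of the list was made. The median log2 fold change was 0.17 over the members and -0.02 over all genes tested. It was above 0 in 21 members and below 0 in 5, and with library totals as the only scaling in 18 and 8, with a median of 0.10. Under that scaling 2 members were called higher, 7.69% beside 7.62% of all genes tested. The share also hung on single libraries. Without control replicate 1, 1 member was called higher (3.85%), beside 861 of all genes tested. Without shikonin replicate 3 the numbers were 9 (34.6%) and 2074. Called changes were small. The largest was a rise of 47.7%, and 0 of 26 passed the paper's limit of a fold change above 1.5 at an unadjusted p under 0.05 in edgeR, DESeq2 or limma-voom, beside 3.43% of all genes higher and 2.68% lower by that rule in edgeR. At an unadjusted p under 0.05 without the limit, 11 members were higher and 1 lower in each of the 3 tools. By that rule 2246 of all 13548 genes tested were higher and 2436 lower in edgeR. In 11 members every shikonin library lay above every control library, 42.3% beside 18.1% of all genes tested, and in 1 every one lay below, 3.85% beside 20.3%. Since the genes were chosen with earlier results known, these shares are a description and no independent evidence.

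**Figure D1:**
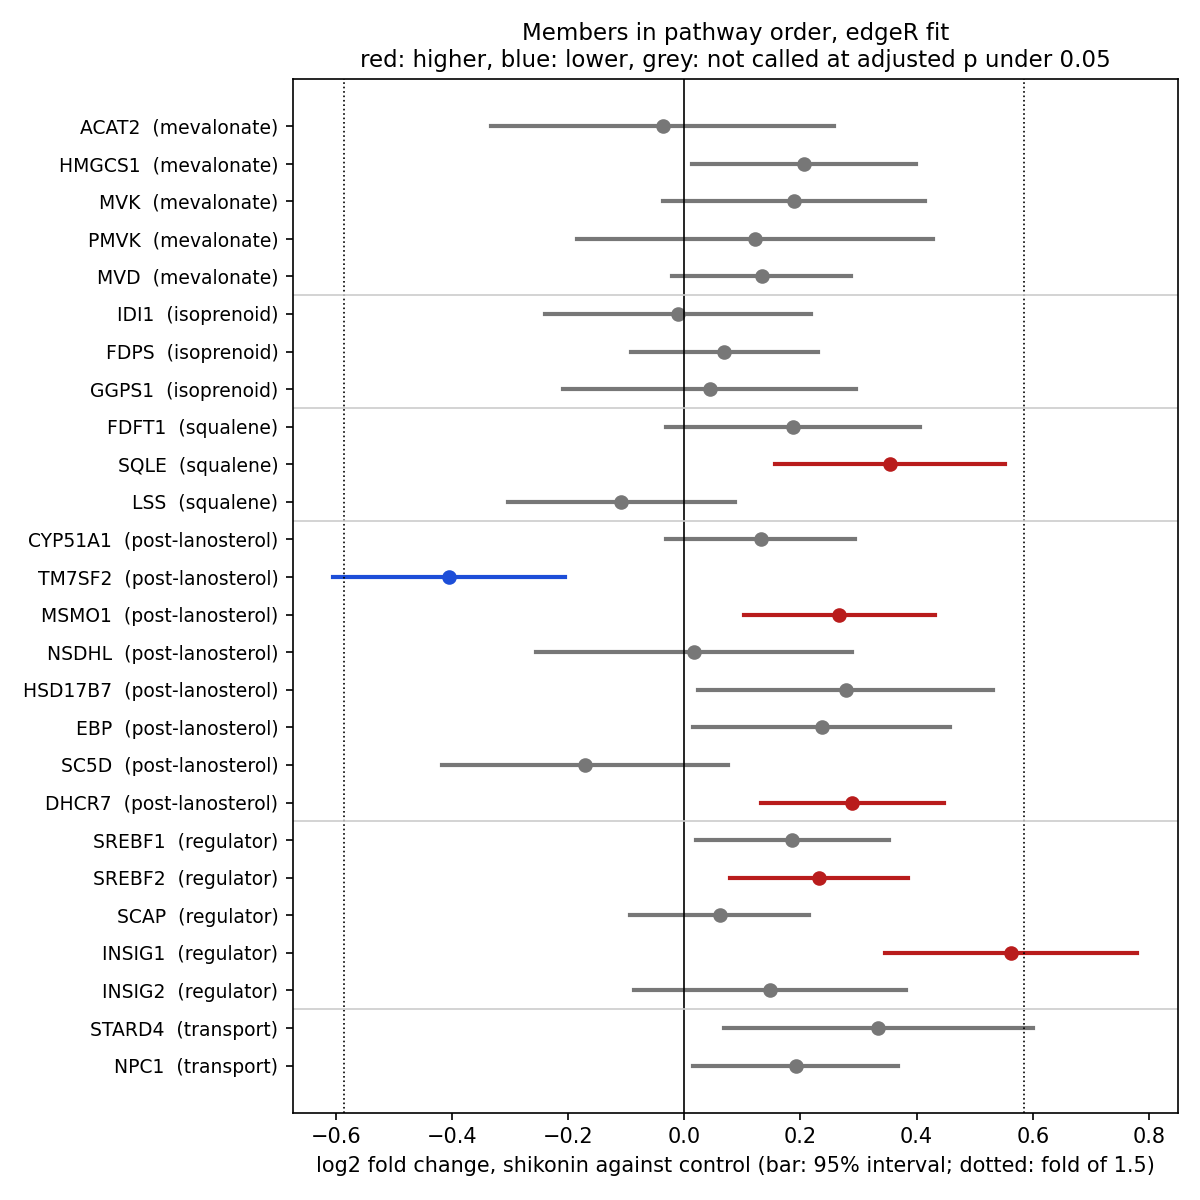
Log2 fold change of each of the 26 genes in pathway order, shikonin against control, with its 95% interval; dotted lines mark a fold of 1.5 in either direction. The 6 called genes run from -0.41 for TM7SF2 to 0.56 for INSIG1, and no point lies past the dotted lines, although the intervals of INSIG1, TM7SF2 and STARD4 do.

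The stretch of DNA around each start site is shown for the 5 called genes with a window that may be printed here. Whether sterol control of these genes acts through it was not tested. SREBPs bind the sterol regulatory element, searched as TCACNCCAC and, after 1 match had been seen, as the looser CACNCCAC that the first contains, and usually work beside NF-Y, which binds CCAAT. Windows run from 250 bases before to 50 after the start in RefSeq (GRCh38.p14), are written 5′ to 3′ on the gene's own strand, and have these motifs in capitals, on either strand (ATTGG is CCAAT read from the other strand). INSIG1 is at chr7:155297628-155297927 on the plus strand, SREBF2 at chr22:41832855-41833154 on the plus strand, DHCR7 at chr11:71448344-71448643 on the minus strand, MSMO1 at chr4:165327419-165327718 on the plus strand and TM7SF2 at chr11:65111622-65111921 on the plus strand.
INSIG1: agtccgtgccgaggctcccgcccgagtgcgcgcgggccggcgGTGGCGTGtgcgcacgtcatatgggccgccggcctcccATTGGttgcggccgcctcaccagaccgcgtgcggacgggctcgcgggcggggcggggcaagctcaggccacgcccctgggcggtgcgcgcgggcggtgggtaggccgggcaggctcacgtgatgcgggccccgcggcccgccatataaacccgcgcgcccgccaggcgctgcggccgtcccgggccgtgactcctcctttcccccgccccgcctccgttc
SREBF2: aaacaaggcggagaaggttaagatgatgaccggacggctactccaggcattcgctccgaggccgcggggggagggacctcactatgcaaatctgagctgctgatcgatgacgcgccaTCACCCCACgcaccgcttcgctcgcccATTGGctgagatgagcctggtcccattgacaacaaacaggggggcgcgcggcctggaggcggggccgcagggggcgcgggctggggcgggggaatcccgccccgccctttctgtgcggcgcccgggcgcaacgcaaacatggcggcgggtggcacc
DHCR7: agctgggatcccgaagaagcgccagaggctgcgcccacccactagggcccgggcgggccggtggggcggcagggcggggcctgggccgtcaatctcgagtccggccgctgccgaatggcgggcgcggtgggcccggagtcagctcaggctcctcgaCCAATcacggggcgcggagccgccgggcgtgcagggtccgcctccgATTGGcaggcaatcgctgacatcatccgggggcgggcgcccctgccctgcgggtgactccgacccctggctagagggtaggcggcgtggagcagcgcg
MSMO1: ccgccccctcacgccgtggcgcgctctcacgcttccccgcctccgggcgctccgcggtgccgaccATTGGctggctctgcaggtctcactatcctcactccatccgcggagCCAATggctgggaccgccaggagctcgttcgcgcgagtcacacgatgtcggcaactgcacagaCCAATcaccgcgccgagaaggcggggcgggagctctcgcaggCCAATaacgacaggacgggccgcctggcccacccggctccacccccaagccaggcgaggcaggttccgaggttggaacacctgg
TM7SF2: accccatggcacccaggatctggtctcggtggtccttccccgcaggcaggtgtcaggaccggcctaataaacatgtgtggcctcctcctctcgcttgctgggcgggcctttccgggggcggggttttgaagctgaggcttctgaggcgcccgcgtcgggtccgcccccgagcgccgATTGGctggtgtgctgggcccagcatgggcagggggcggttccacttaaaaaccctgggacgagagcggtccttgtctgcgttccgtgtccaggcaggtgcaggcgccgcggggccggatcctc

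The SREBF2 window held the full element, TCACCCCAC, 133 bases before the start, with a CCAAT box on the other strand 106 bases before it. The INSIG1 window held the looser form on the other strand, GTGGCGTG, 208 bases before the start, and a CCAAT box 170 bases before it. The windows of DHCR7, MSMO1 and TM7SF2 held neither form, while they held 2, 4 and 1 CCAAT boxes. Of 23 members with a window, 1 held TCACNCCAC, in 3.23% of the members' 31 windows beside 1.13% of all 35116 windows, and 4 held CACNCCAC, namely INSIG1, SREBF2, IDI1 and SC5D, in 16.1% beside 5.87%. The CACNCCAC site of SC5D lies in overlapping windows and was counted in each. CCAAT was found in 17 members, in 61.3% of member windows beside 34.6% of all, and GGGCGG, the core bound by SP1, in 22, in 90.3% beside 45.0%. The background of all windows was not matched for expression or GC content, which was 67.7% to 78.3% in the windows shown. Whether the difference in shares is particular to sterol genes was therefore not tested. IDI1, with the looser element at another start than its canonical one, and SC5D had log2 fold changes of -0.01 and -0.17 and no call. A match is a run of letters, and binding was not measured.

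Among the regulators, the sterol sensor partner INSIG1 and the transcription factor SREBF2 rose, 40.0% of 5 beside 10.8% of all genes tested, and the other 3 did not pass the test. INSIG1 retains SCAP and SREBPs in the endoplasmic reticulum and is itself among the most sterol-responsive SREBP2 targets. It lies on chromosome 7 from 155297776 to 155310235 (GRCh38, GENCODE release 44, plus strand). Its level was 34.9, 37.7 and 32.4 CPM in the control libraries and 51.8, 44.7 and 58.5 CPM in the shikonin libraries. All 3 shikonin libraries lay above all 3 control libraries. The mean rose from 35.0 ± 2.69 to 51.7 ± 6.90 CPM (SD, n = 3 each), a log2 fold change of 0.56 (SE 0.10, 95% interval 0.35 to 0.78, adjusted p = 0.00156 by edgeR), which is the largest of the 26. The call was kept without any one library, with an adjusted p of 0.00162 to 0.0114.

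INSIG2, the paralog of INSIG1 whose transcription is not under SREBP control in most cells, had 23.1, 20.6 and 21.0 CPM in control and 23.6, 21.3 and 26.7 CPM in shikonin, and the groups overlapped. Its log2 fold change was 0.15 (95% interval -0.09 to 0.38, adjusted p = 0.364). The ratio of INSIG1 to INSIG2 within a library, one of 3 ratios chosen after the values were seen, was 1.63 ± 0.175 in control and 2.16 ± 0.0553 in shikonin (SD, n = 3 each). All 3 shikonin libraries had the higher ratio, and the exact two-sided permutation p was 0.1, the smallest that 3 against 3 libraries allow (0.15 adjusted over the 3 ratios).

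SREBF2, the gene of SREBP2, had 310.9, 330.9 and 313 CPM in control and 384, 380.5 and 357 CPM in shikonin, and the groups did not overlap. It lies on chromosome 22 from 41833105 to 41907306, plus strand. The mean rose from 318 ± 10.9 to 374 ± 14.8 CPM, by 17.4%, with a log2 fold change of 0.23 (SE 0.07, 95% interval 0.08 to 0.38, adjusted p = 0.0319 by edgeR). This call was the least steady of the 6. It held without shikonin replicate 3 (adjusted p = 0.00314) and was lost without control replicate 1, 2 or 3 (0.141, 0.0724 and 0.103) and without shikonin replicate 1 or 2 (0.114 and 0.0909), and with library totals as the only scaling (0.0657). The exons of SREBF2 overlap SREBF2-AS1 on the opposite strand, and whether strand was used in counting is not stated.

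SREBF1, which encodes the SREBP1 factors that favour fatty acid genes, had 418, 434 and 386 CPM in control and 485, 485 and 439 CPM in shikonin. The groups did not overlap, but the log2 fold change of 0.19 (95% interval 0.02 to 0.35) had an adjusted p of 0.103 by edgeR and was not called. The ratio of SREBF2 to SREBF1 was 0.772 ± 0.0340 in control and 0.797 ± 0.0143 in shikonin (SD, n = 3 each; exact two-sided permutation p = 0.3, also 0.3 adjusted). DESeq2 called SREBF1 (adjusted p = 0.0349), and so did edgeR without shikonin replicate 3 (0.00962). SCAP, the escort protein, had 134, 139 and 129.5 CPM in control and 149, 140.5 and 130.0 CPM in shikonin, with a log2 fold change of 0.06 (95% interval -0.09 to 0.22, adjusted p = 0.593). Per kilobase of transcript, the control levels of SREBF1 and SREBF2 were the highest of the 26, at 84.2 and 60.8 CPM per kilobase, and MVK was the lowest at 5.98.

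**Figure D2:**
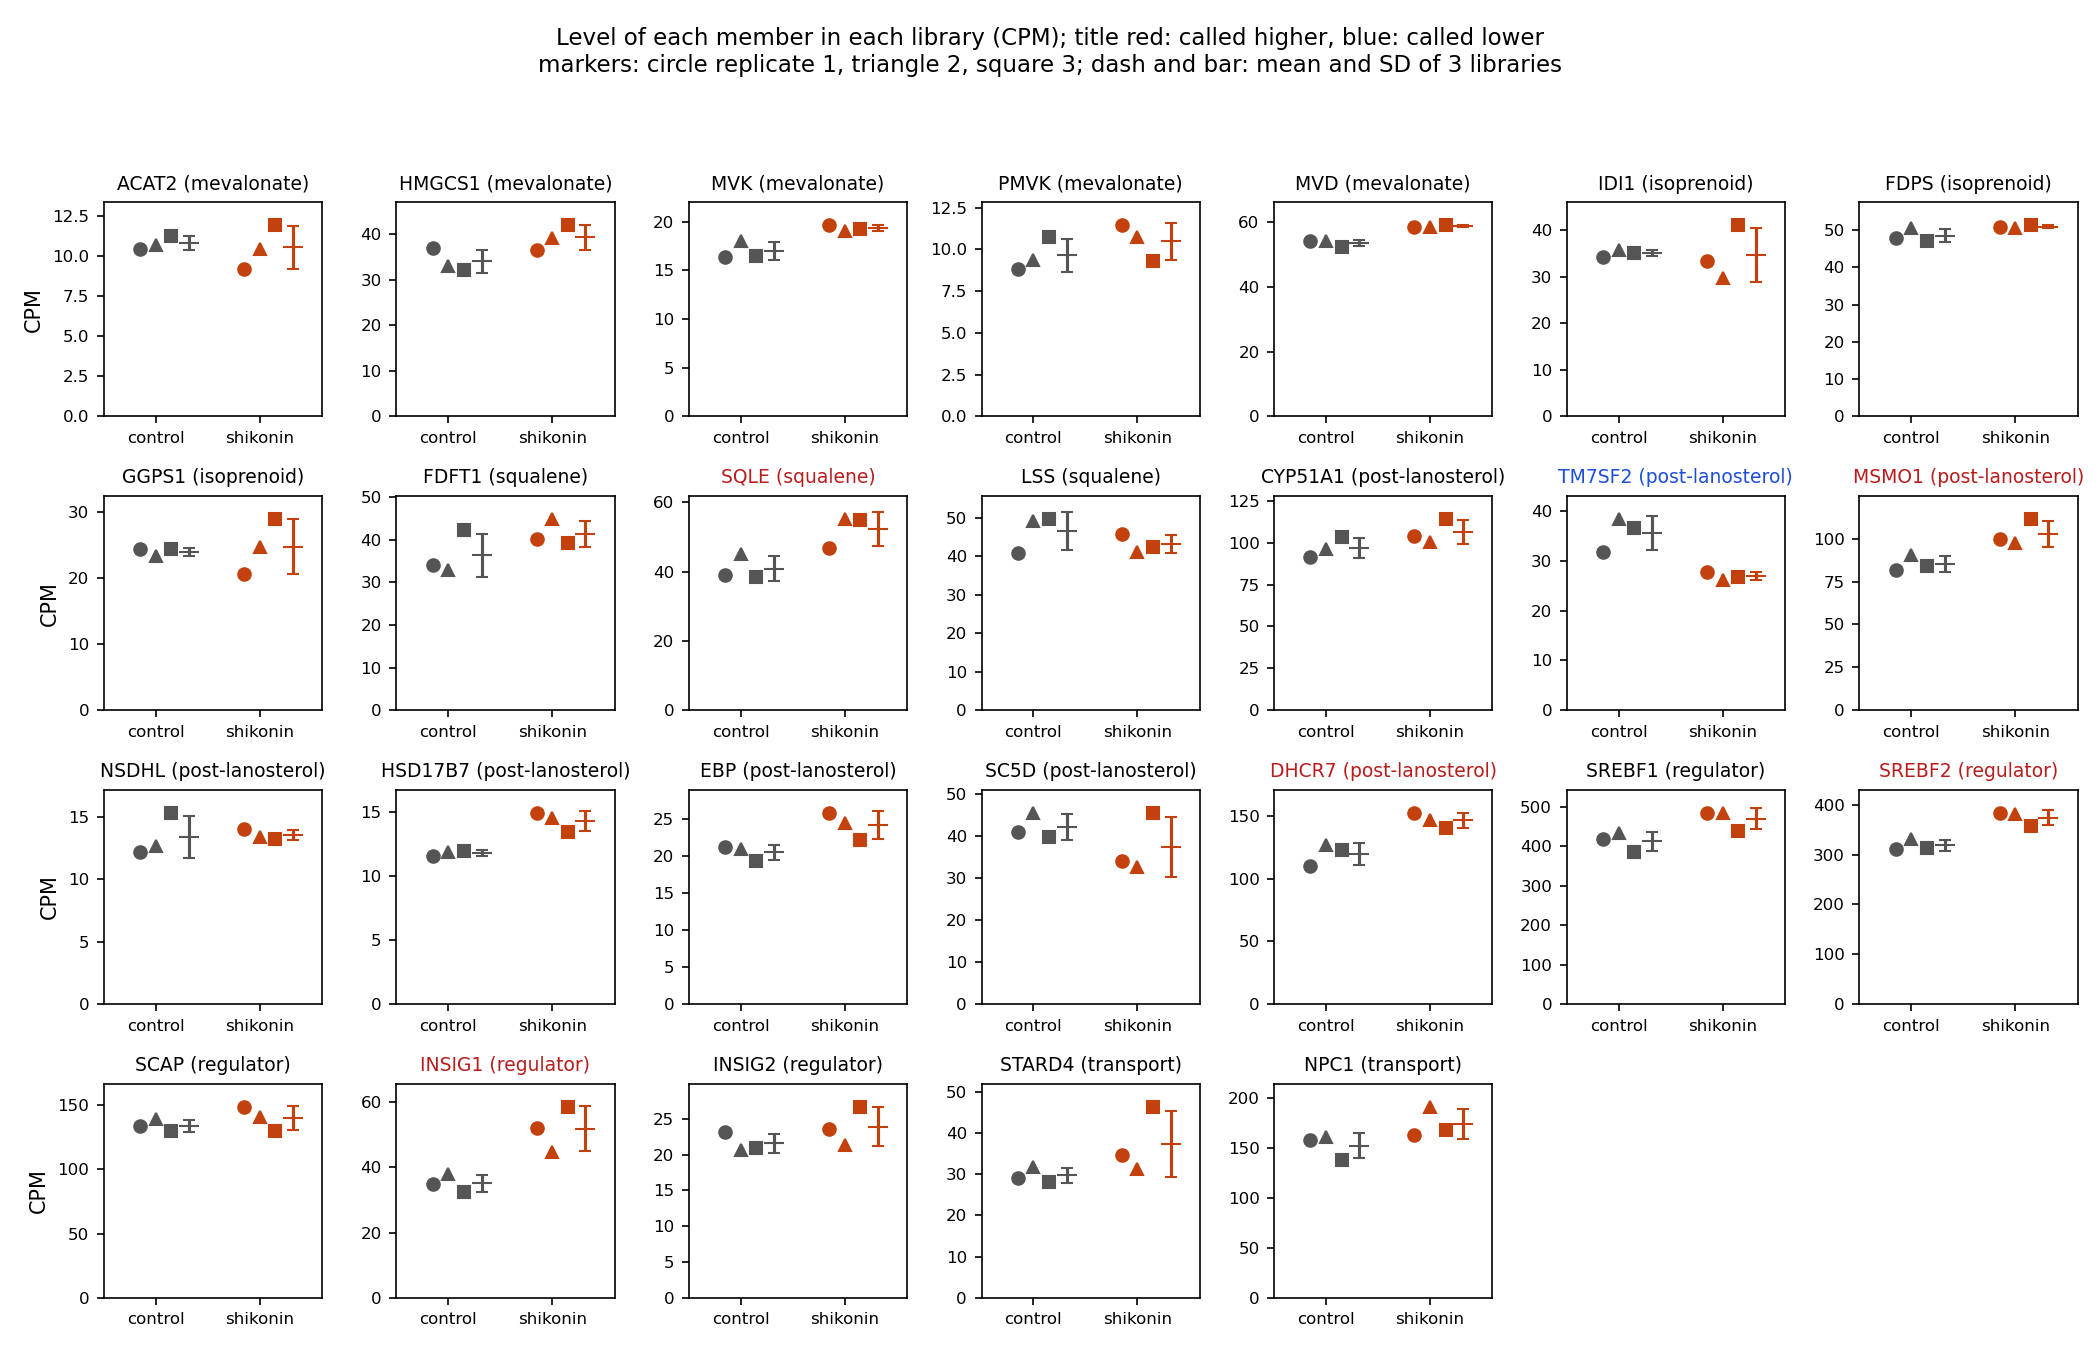
Level of each of the 26 genes in CPM in each library, control at left and shikonin at right; symbols mark replicates 1, 2 and 3, dash and bar the mean and SD of 3 libraries, and each axis starts at 0. The 3 shikonin libraries of INSIG1, SREBF2, SQLE, DHCR7 and MSMO1 sit above all 3 control libraries and those of TM7SF2 below them.

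The 5 enzymes that carry acetyl-CoA to isopentenyl diphosphate and the 3 that handle isoprenoid diphosphates held no call. Of these 8, 0 passed edgeR's, DESeq2's or limma-voom's test after adjustment, and 1, HMGCS1, was higher at an unadjusted p under 0.05 in each tool. By edgeR, 10.8% of all genes tested were called higher and 11.1% lower after adjustment. At an unadjusted p under 0.05, 2246 of all 13548 genes were higher and 2436 lower. The median log2 fold change was 0.13 over the mevalonate arm and 0.04 over the isoprenoid steps. HMGCS1, the synthase that commits acetoacetyl-CoA to the pathway, had 36.9, 33.1 and 32.1 CPM in control and 36.6, 39.2 and 42.0 CPM in shikonin. Shikonin replicate 1 fell among the controls, and the log2 fold change was 0.21 (95% interval 0.01 to 0.40, adjusted p = 0.118). MVD, which decarboxylates mevalonate diphosphate, had 54.1, 54.2 and 52.6 CPM in control and 58.7, 58.6 and 59.2 CPM in shikonin, which did not overlap (log2 fold change 0.13, adjusted p = 0.206). MVK, mevalonate kinase, did not overlap either, with 16.4, 18.0 and 16.5 CPM against 19.7, 19.02 and 19.3 CPM (0.19, adjusted p = 0.223). The exons of MVK overlap MMAB on the opposite strand. PMVK, the kinase after it, and ACAT2, which joins acetyl-CoA units, overlapped between groups, with log2 fold changes of 0.12 (95% interval -0.18 to 0.43) and -0.04 (-0.33 to 0.26).

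IDI1 isomerises isopentenyl diphosphate, FDPS makes farnesyl diphosphate and GGPS1 makes geranylgeranyl diphosphate for protein prenylation. Their log2 fold changes were -0.01 for IDI1 (95% interval -0.24 to 0.22), 0.07 for FDPS (-0.09 to 0.23) and 0.04 for GGPS1 (-0.21 to 0.30), so a change past a fold of 1.5 lies outside each interval. The shikonin libraries of IDI1 had 33.3, 29.7 and 41.1 CPM around control values of 34.3, 35.6 and 35.1 CPM. Replicate 3 stood above every control and the others below. GGPS1 spread likewise in shikonin, at 20.6, 24.7 and 29.0 CPM, against 24.4, 23.3 and 24.4 CPM in control. FDPS and IDI1 have 8 and 3 named pseudogenes, among which reads could be split. Exons of GGPS1 overlap another annotated gene on the same strand.

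The steps from farnesyl diphosphate to lanosterol held 1 call of 3, 33.3% beside 10.8% of all genes tested higher. SQLE, squalene epoxidase, the enzyme that brings in oxygen and a known control point of the pathway, lies on chromosome 8 from 124998497 to 125022283, plus strand. It had 39.1, 45.0 and 38.6 CPM in control and 46.7, 55.2 and 55.0 CPM in shikonin, and the groups did not overlap. The mean rose from 40.9 ± 3.55 to 52.3 ± 4.82 CPM, by 27.9%, a log2 fold change of 0.35 (SE 0.09, 95% interval 0.16 to 0.55, adjusted p = 0.0142 by edgeR). The call was lost without control replicate 1 or 3 (0.0733 and 0.0529), without shikonin replicate 2 (0.0639) and with library totals as the only scaling (0.0506). On its sides in the pathway, FDFT1, squalene synthase, had 34.0, 32.9 and 42.2 CPM in control and 40.3, 44.9 and 39.2 CPM in shikonin. The groups overlapped through control replicate 3, and the log2 fold change was 0.19 (adjusted p = 0.211; 0.31 and 0.0479 without that library). LSS, lanosterol synthase, had 40.9, 49.0 and 49.7 CPM in control and 45.8, 41.2 and 42.5 CPM in shikonin, with a log2 fold change of -0.11 (95% interval -0.30 to 0.09, adjusted p = 0.431).

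The 8 enzymes between lanosterol and cholesterol held calls in both directions, with DHCR7 and MSMO1 higher, TM7SF2 lower and 5 not called. The shares were 25.0% higher and 12.5% lower, beside 10.8% and 11.1% of all genes tested. DHCR7, the reductase that finishes cholesterol from its dehydro precursor, which is also the precursor of vitamin D, lies on chromosome 11 from 71428193 to 71452868, minus strand. It had 110.2, 127 and 123 CPM in control and 153, 147 and 141 CPM in shikonin, with no overlap. The mean rose from 119.9 ± 8.63 to 147 ± 6.04 CPM, by 22.2%, a log2 fold change of 0.29 (SE 0.07, 95% interval 0.13 to 0.45, adjusted p = 0.0127 by edgeR), and the call was lost without control replicate 1 (0.0911) or shikonin replicate 1 (0.0573). MSMO1, the oxidase that starts removal of the methyl groups left after the CYP51A1 step, lies on chromosome 4 from 165327667 to 165343164, plus strand. It had 81.5, 90.5 and 84.3 CPM in control and 99.6, 97.3 and 111 CPM in shikonin, again with no overlap. The mean rose from 85.4 ± 4.64 to 103 ± 7.60 CPM, by 20.3%, a log2 fold change of 0.27 (SE 0.08, 95% interval 0.10 to 0.43, adjusted p = 0.0224 by edgeR). That call was lost without control replicate 1 or 3 (0.116 and 0.0721) and with library totals as the only scaling (0.0906).

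TM7SF2, a sterol reductase of the endoplasmic reticulum that acts right after the demethylase CYP51A1, went the other way. It lies on chromosome 11 from 65111845 to 65116384, plus strand. Its level was 31.9, 38.4 and 36.5 CPM in control and 27.8, 26.1 and 26.8 CPM in shikonin, every shikonin library below every control. The mean fell from 35.6 ± 3.37 to 26.9 ± 0.825 CPM, by 24.5%, a log2 fold change of -0.41 (SE 0.09, 95% interval -0.60 to -0.21, adjusted p = 0.00696 by edgeR), and without control replicate 2 the adjusted p was 0.0511. The neighbour VPS51, on the same strand from 65089324 to 65111862, ends within the annotated start of TM7SF2, where their exons overlap, and VPS51 rose from 74.5 ± 2.87 to 108 ± 7.73 CPM (log2 fold change 0.53, adjusted p = 0.000295 by edgeR). How reads in the overlap were assigned is not stated, and the part of VPS51 in the TM7SF2 count was not tested. For LBR, a protein of the inner nuclear membrane with the same reductase activity, the change was -0.02 on the log2 scale (adjusted p = 0.876). The ratio of TM7SF2 to LBR was 0.304, 0.395 and 0.397 in control and 0.297, 0.280 and 0.259 in shikonin. Control replicate 1 lay close to shikonin replicate 1, and the exact two-sided permutation p was 0.1, the smallest possible (0.15 adjusted over the 3 ratios).

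CYP51A1, the lanosterol demethylase, had 91.3, 96.3 and 103 CPM in control and 104, 101 and 114 CPM in shikonin, which overlapped (log2 fold change 0.13, adjusted p = 0.240). HSD17B7 and EBP, a keto reductase and a sterol isomerase of the same stretch, did not overlap between groups. HSD17B7 had 11.5, 11.9 and 11.9 CPM against 14.9, 14.5 and 13.4 CPM (log2 fold change 0.28, 95% interval 0.02 to 0.53, adjusted p = 0.111). EBP had 21.2, 21.0 and 19.4 CPM against 25.9, 24.5 and 22.1 CPM (0.24, 0.02 to 0.46, adjusted p = 0.119). Without shikonin replicate 3, both were called (adjusted p = 0.0471 and 0.0231), while both missed in the full set. Leaving out that library also raised the calls over all genes, from 1460 higher and 1504 lower to 2074 and 1901. With an offset by transcript length and GC content, the log2 fold change was 0.05 for EBP (adjusted p = 0.753) and 0.04 for MVD (0.701). CYP51A1 and HSD17B7 also have named pseudogenes, and exons of CYP51A1 and of EBP overlap other annotated genes on the same strand. NSDHL, which removes the carboxyl group left by demethylation, had a log2 fold change of 0.02 (95% interval -0.25 to 0.29). SC5D, a desaturase, had 41.0, 45.6 and 39.9 CPM in control and 34.1, 32.6 and 45.6 CPM in shikonin. Shikonin replicate 3 lay level with the highest control and the other shikonin libraries below all controls, so that the log2 fold change was -0.17 (adjusted p = 0.314) with it and -0.31 (0.0159) without it.

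Both transport genes held no call, 0 of 2 by edgeR or limma-voom after adjustment, although both were higher at an unadjusted p under 0.05 in these tools and in DESeq2. By that unadjusted rule 2246 of all 13548 genes were higher in edgeR. STARD4 carries cholesterol through the cytosol and is an SREBP2 target. It had 29.1, 31.8 and 28.2 CPM in control and 34.6, 31.2 and 46.4 CPM in shikonin, where replicate 2 lay among the controls and replicate 3 far above them. Its log2 fold change was 0.33 (95% interval 0.07 to 0.60, adjusted p = 0.0690 by edgeR), and DESeq2 called it (0.0436), as did edgeR without shikonin replicate 2 (0.0320). Without shikonin replicate 3 the log2 fold change was 0.17 (0.174). NPC1, which lets cholesterol leave late endosomes and lysosomes, had 157, 161 and 138 CPM in control and 163, 191 and 167 CPM in shikonin. The groups did not overlap, and the log2 fold change was 0.19 (95% interval 0.02 to 0.37, adjusted p = 0.112).

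Within the shikonin treatment group the libraries did not carry the pattern equally. Summed over the 19 enzymes, levels were 748, 805 and 794 CPM in control and 846, 840 and 887 CPM in shikonin, and over the 7 other members 1107, 1154 and 1048 CPM against 1289.9, 1294 and 1225 CPM. Shikonin replicates 1, 2 and 3 had 17, 16 and 19 members above all controls and 5, 3 and 1 below all controls. The matching shares of all genes tested were not computed, so these counts have no background beside them. Replicate 3 was the highest shikonin library for 12 members, including INSIG1, STARD4, IDI1, GGPS1 and SC5D, and replicate 1 for 11, including SREBF2, DHCR7 and EBP.

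**Figure D3:**
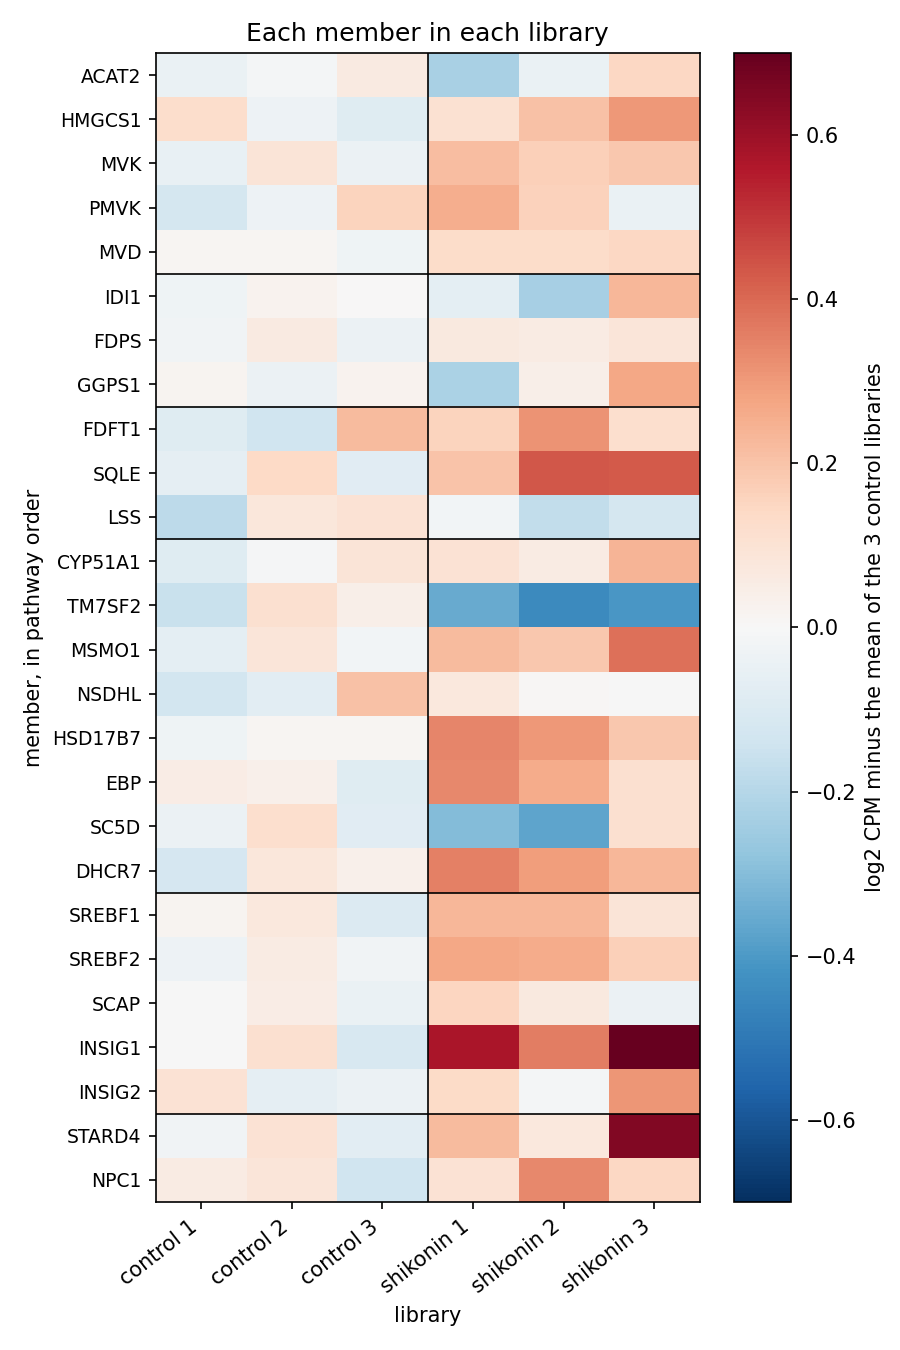
Log2 CPM of each of the 26 genes in each of the 6 libraries minus the mean of the control libraries; red cells lie above that mean and blue cells below it. Shikonin replicate 3 departs from replicates 1 and 2 in STARD4, IDI1, SC5D and GGPS1, and INSIG1 and TM7SF2 keep 1 direction in all 3.

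**Figure D4:**
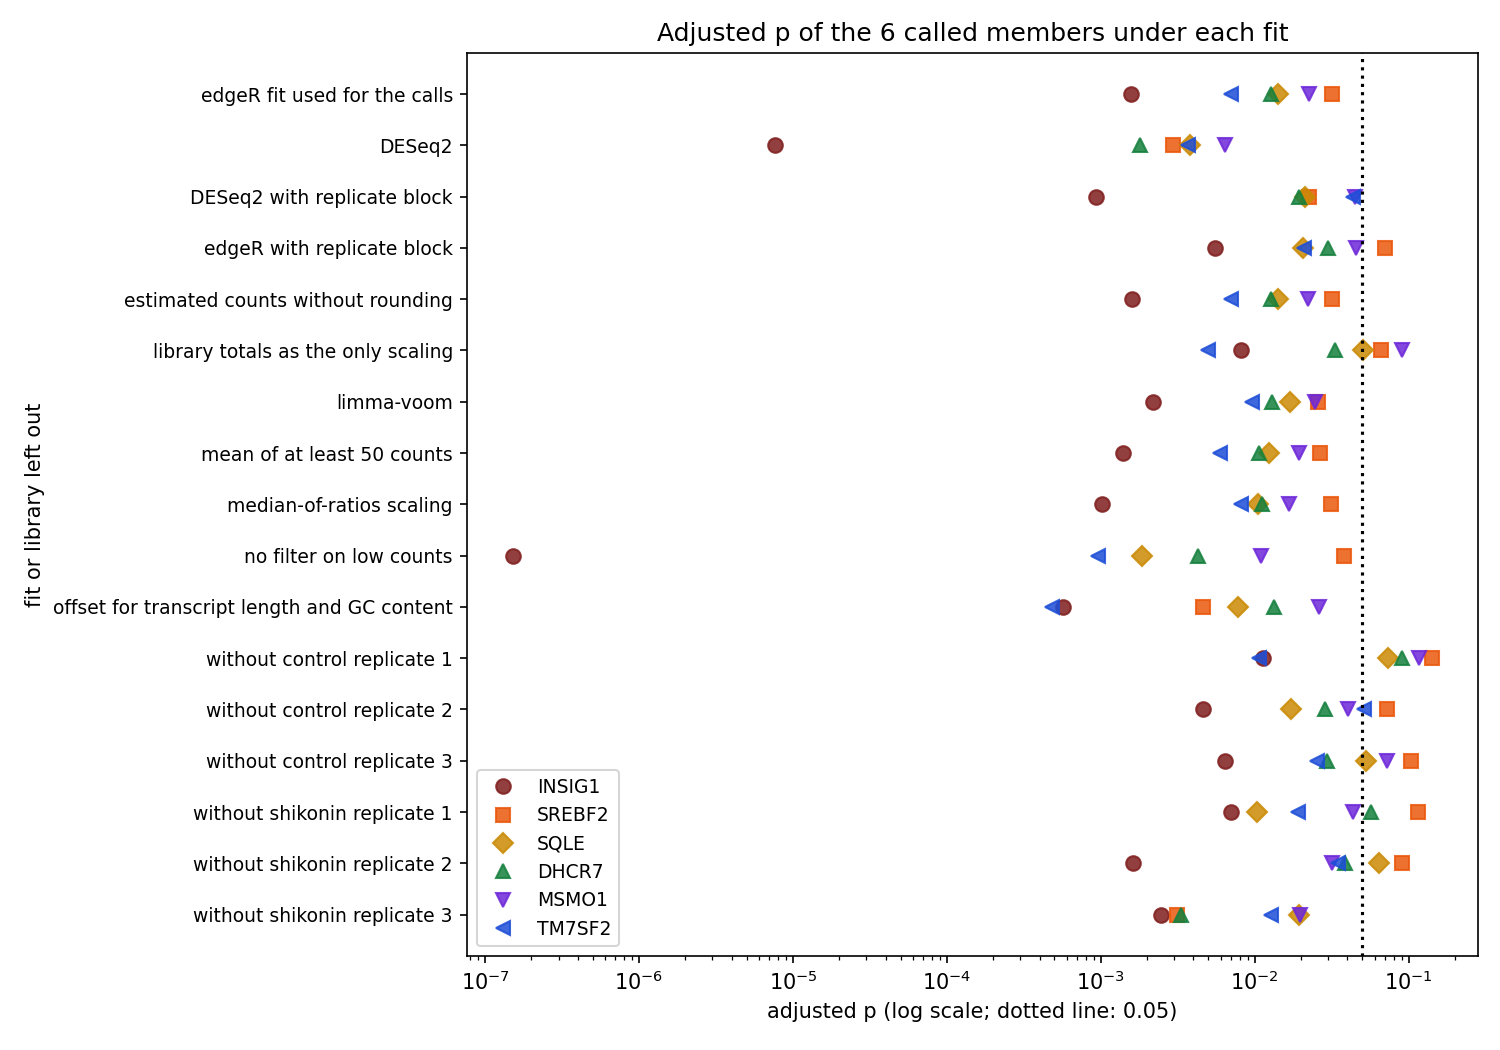
Adjusted p of the 6 called genes on a log axis under the edgeR fit used for the calls, 10 other fits and 6 fits that leave out 1 library; the dotted line is at 0.05. INSIG1 lies left of the line in every fit drawn, and SREBF2 lies right of it in 5 of the 6 fits that leave out 1 library.

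Enzyme partners and sterol sensing genes outside the 26 were taken from lists compiled from general knowledge, with earlier results of these data known. Of 7 other genes of sterol synthesis, 2 rose and 0 fell (0 also at an unadjusted p under 0.05 in edgeR, DESeq2 and limma-voom), and the median log2 fold change was -0.02. The 2 are 28.6% of the list, beside 10.8% of all genes tested higher. POR, the reductase that feeds electrons to SQLE and CYP51A1, had 198, 197 and 189 CPM in control and 263, 263 and 228 CPM in shikonin, with no overlap (log2 fold change 0.37, SE 0.08, adjusted p = 0.00342 by edgeR). CYB5B, a cytochrome of the mitochondrial outer membrane, rose from 378 ± 29.5 to 453 ± 12.7 CPM (0.26, adjusted p = 0.0269), a call lost without control replicate 1 or 3 (0.158 and 0.0834) or shikonin replicate 1 (0.0756) and with library totals as the only scaling (0.0741). PGRMC1, a heme-binding partner of the pathway's cytochromes, and CYB5R3, a reductase that feeds cytochrome b5, had every shikonin library below every control, with log2 fold changes of -0.13 and -0.16 and no call (adjusted p = 0.193 and 0.206). With library totals as the only scaling both were called lower (0.0442 and 0.0470), and PGRMC1 also with the offset (0.0185).

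Of 12 genes of SREBP processing and sterol sensing, 1 rose and 4 fell, and the median was -0.10. The shares were 8.33% and 33.3%, beside 10.8% and 11.1% of all genes tested. MBTPS1, the Golgi protease that makes the first cut in SREBPs, had 422, 403 and 402 CPM in control and 339, 358 and 336 CPM in shikonin, with no overlap. It fell by 0.25 on the log2 scale (adjusted p = 0.0217 by edgeR). SPRING1, a partner that MBTPS1 needs, was named after the values were seen and fell by 0.20 (adjusted p = 0.0467). The fall of SPRING1 was called in 4 of 10 other fits and without shikonin replicate 3 only. ERLIN2, a scaffold for degradation at the endoplasmic reticulum that binds SREBPs and INSIG1, had 68.8, 68.6 and 69.8 CPM in control and 55.6, 57.3 and 55.0 CPM in shikonin, and fell by 0.30 (adjusted p = 0.00749). RNF139, a sterol-sensing ubiquitin ligase, fell by 0.29 (adjusted p = 0.0252), and VCP, the segregase that pulls ubiquitinated proteins from the membrane, rose by 0.27 (0.0356). Of these calls, that of ERLIN2 was kept without any one library. That of MBTPS1 was lost without control replicate 1 or 2 or shikonin replicate 1 (0.114, 0.0712 and 0.0817), that of RNF139 without control replicate 1 or shikonin replicate 2 or 3 (0.161, 0.0783 and 0.0586), and that of VCP held only without shikonin replicate 3 (0.00255).

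Fatty acid synthesis and SREBP1 target genes held 4 higher calls of 14, 28.6% beside 10.8% of all genes tested, and 0 lower calls by edgeR, DESeq2 or limma-voom, also at an unadjusted p under 0.05. The median was 0.13. ME1, malic enzyme, which makes NADPH for lipid synthesis and is also an NRF2 target, had 118, 112 and 125 CPM in control and 174, 184 and 199 CPM in shikonin (log2 fold change 0.65, SE 0.07, adjusted p = 6.32e-05 by edgeR). FADS1, a desaturase of polyunsaturated fatty acids, rose from 93.2 ± 7.51 to 125 ± 2.71 CPM (0.42, adjusted p = 0.00131). Both calls were kept without any one library. SCD, stearoyl-CoA desaturase, rose by 0.27 (adjusted p = 0.0330), and that call held only without control replicate 2 (0.0416) or shikonin replicate 3 (0.00513). TMEM97, a sterol-regulated membrane protein that binds NPC1, rose by 0.34 (0.0466), held without shikonin replicate 3 only (0.00270).

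LXR targets are switched on by oxysterols when cholesterol is plentiful, and the list of 8 used here also held the receptor genes NR1H2 and NR1H3. It had 0 higher calls and 1 lower, 12.5% beside 11.1% of all genes tested lower and 10.8% higher. Of the 8, 0 were higher at an unadjusted p under 0.05 in edgeR, DESeq2 or limma-voom. The lower call was LPCAT3, a phospholipid acyltransferase, which fell by 0.28 (adjusted p = 0.0368 by edgeR) and kept the call without shikonin replicate 1 only (0.0456). The cholesterol exporters ABCA1 and ABCG1 and the ubiquitin ligase MYLIP, named after their values were seen as the most widely used LXR readouts, had log2 fold changes of -0.03, 0.03 and -0.08 (adjusted p = 0.922, 0.899 and 0.583).

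**Figure D5:**
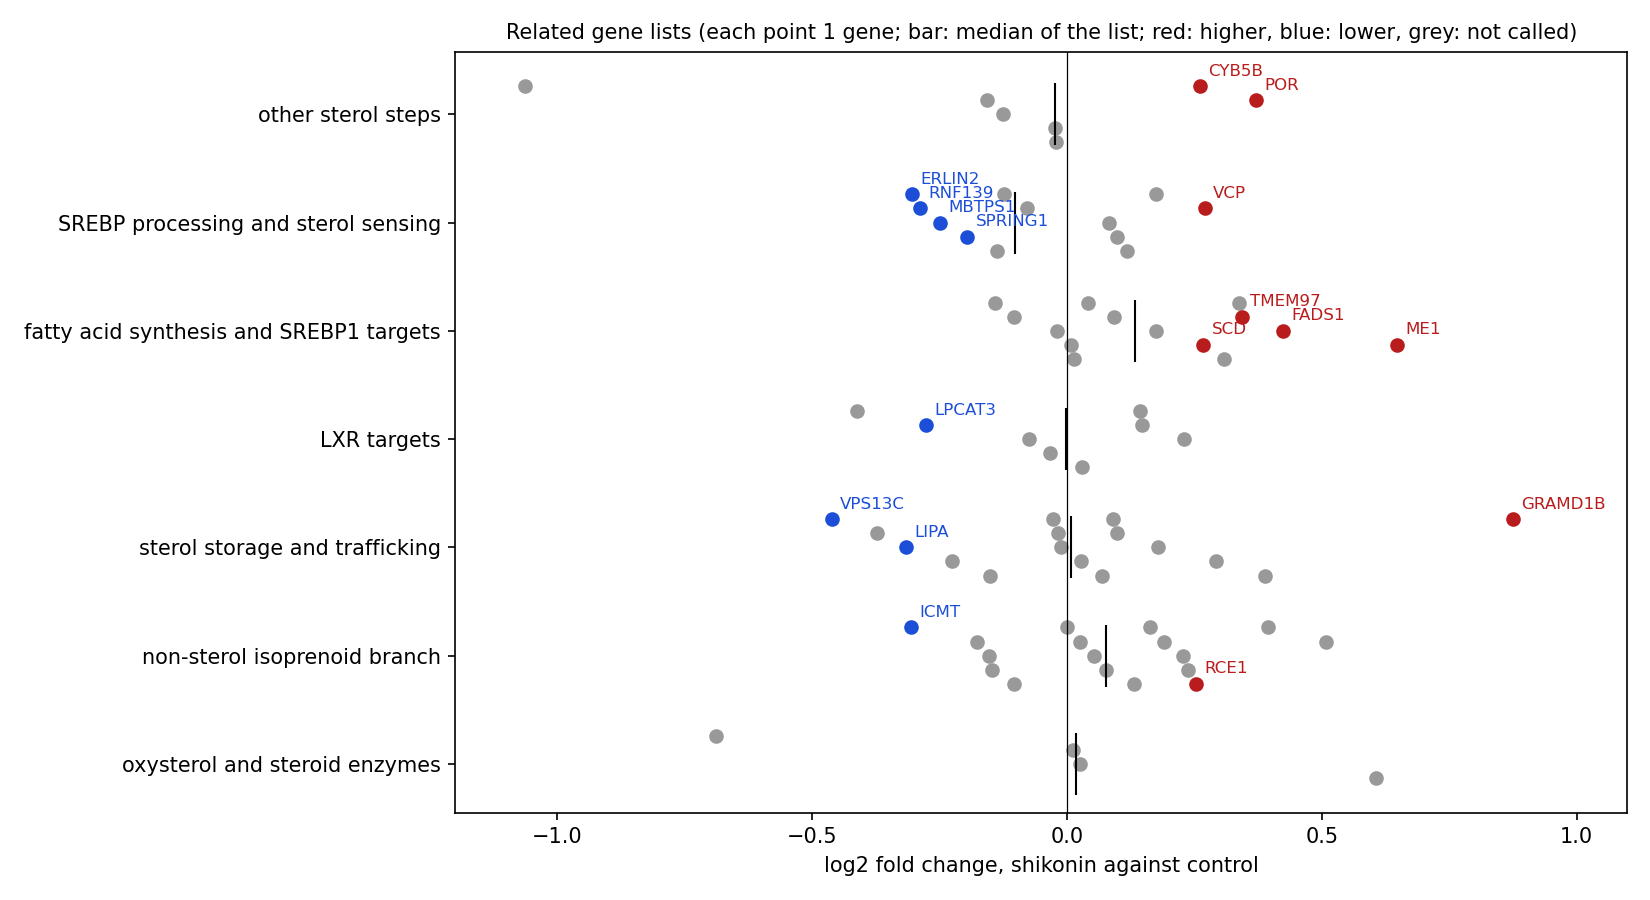
Log2 fold change, shikonin against control, of the tested genes of 7 related lists; each point is 1 gene, the vertical bar is the list's median, and red and blue mark called genes. GRAMD1B at 0.88 and ME1 at 0.65 lie farthest right among called genes and VPS13C at -0.46 farthest left.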

How the data were processed

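The authors sequenced messenger RNA of HCT116 cells and deposited 1 table of estimated counts for each gene and library, with no scaling between libraries. The paper names hg38, TopHat2 and featureCounts; the processing notes name mouse builds, whereas the gene identifiers are human. How fractional values arose (46.5% to 63.3% of values above 0 in a library) and the annotation release are not given in the sources used here. The plan had allowed for such values, which were rounded before fitting. Of 35106 identifiers, 34979 matched GENCODE release 44.

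Fits used edgeR 4.0.16 under R 4.3.3 (filterByExpr, TMM scaling, glmQLFit and glmQLFTest) over all 6 libraries with the group as the only term. Standard errors follow from the F statistic as log2 fold change over its root, and 95% intervals used the fit's degrees of freedom. Other fits scaled by medians of ratios or by library totals, dropped the filter, raised it to a mean of 50 counts, skipped rounding, added a block for replicate number (edgeR and DESeq2), or added an offset by transcript length and GC content, a spline with 5 degrees of freedom. DESeq2 1.42.0 and limma-voom (limma 3.58.1) replaced edgeR in further fits, the paper's 1.5-fold limit was applied as a rule and as a test, and each library was left out in turn. The procedure was tested on simulated data.

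The 26 members and the lists were chosen with earlier results of these data known. Every member is named, with up to 4 genes of smallest p per related list and promoters of members with a TCACNCCAC match. The other promoters shown, the motif CACNCCAC, the ratios, SPRING1, ABCA1, ABCG1, MYLIP and VPS51 were added after values were seen. Levels between genes are compared only per kilobase of the Ensembl canonical transcript. The paper's own comparison was not used here.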

Additional observations from a re-analysis of the deposited data

How the results depend on the processing

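The 5 higher and 1 lower calls among the 26 became 2 and 1 when only library totals set the scale, 7 and 1 with DESeq2, 9 and 1 with the length and GC offset (which also called HMGCS1, SREBF1, STARD4 and NPC1, beside 12.5% of all genes higher), and 0 and 0 in edgeR's test against a fold of 1.5. Over all genes, DESeq2 called 1591 higher and 1427 lower. The direction of the 6 called genes was the same in all fits run. The same replicate number did not pair libraries (correlations of deviations 0.0027, 0.0131 and 0.0371); with a replicate block edgeR called 4 and 1, losing SREBF2 (0.0702), and DESeq2 called 5 and 1.

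By fold above 1.5 at an unadjusted p, calls were 465 higher and 363 lower over all genes, 3 and 0 over the related lists (from 9 and 8), and 0 for enzymes (from 3 and 1) and for regulators and transport genes (from 2). Testing against that fold gave 38 and 24, 0 and 0, and 0. All genes had 1460 and 1504 calls, 861 to 2074 and 776 to 1901 without 1 library, 781 lower in DESeq2 with the block, and 1033 higher and 2150 lower (15.9% of genes) with library totals, so that the near-even split depends on the scaling. The 2074 and 1901 came without shikonin replicate 3, and leaving out any other library gave fewer calls than the full set in both directions. Related lists had 9 higher and 8 lower calls, 11.5% and 10.3% of their tested genes, beside 10.8% and 11.1% of all genes. They had 4 higher and 5 lower with the block in edgeR, 5 lower with it in DESeq2, 4 higher with library totals, 15 with the offset, and 4 to 14 and 4 to 6 without 1 library. Enzymes had 1 higher with library totals, and 0 to 5 and 0 to 2 without 1 library. Regulators and transport genes had 4 higher with DESeq2, 5 with the offset, 1 with the edgeR block and 1 with library totals. Without 1 library they had 1 to 4. All genes called higher numbered 1591 with DESeq2, 1689 with the offset, 1186 with the edgeR block and 1033 with library totals. Of the regulators and transport genes, 0 were lower in every fit, also at an unadjusted p under 0.05 in edgeR, DESeq2 and limma-voom. Median log2 fold changes were 0.13 for enzymes (library totals 0.0706, offset 0.0400, 0.0904 to 0.164 without 1 library) and 0.19 for regulators and transport genes (library totals 0.13, 0.14 to 0.24). Across the named genes and settings, 839 calls or non-calls held, 124 were lost and 22 gained. This tally includes the 1.5-fold rule and the test against that fold, which drop small changes by design. It also counts genes that stayed without a call as held, so it does not measure how steady the calls were.

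Log2 fold change went with transcript length (Spearman rho -0.30 across 13515 genes, which are not independent; median 3024 bases in members, 3799 overall), whose part in the members' values was not tested beyond the offset. Members had 170 to 10110 counts per library, so changes of the size seen were less measurable in PMVK or ACAT2 than in SREBF1.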

Other observations

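Genes that store or move sterol outside the 26 held 1 higher and 2 lower calls of 16, 6.25% and 12.5% beside 10.8% and 11.1% of all genes tested, with a median log2 fold change of 0.01. GRAMD1B, which carries cholesterol from the plasma membrane to the endoplasmic reticulum, had 27.0, 32.1 and 25.7 CPM in control and 50.9, 52.2 and 52.3 CPM in shikonin, so that the groups lay far apart. Its log2 fold change of 0.88 (SE 0.09, adjusted p = 3.06e-05 by edgeR) was larger than that of any of the 26 members. LIPA, the lysosomal lipase that frees cholesterol from its esters, had a mean of 82.3 ± 3.60 CPM in control and of 66.1 ± 1.51 CPM in shikonin (SD, n = 3 each) and fell by 0.32 on the log2 scale (adjusted p = 0.00614). VPS13C, a lipid transfer protein at membrane contacts, fell from 48.9 ± 4.87 to 35.5 ± 4.19 CPM (-0.46, adjusted p = 0.00521). The calls of GRAMD1B, LIPA and VPS13C were kept without any one library and in 10 of 10 other fits.

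The branch of the pathway that leads to prenylated proteins, dolichol and ubiquinone held 1 higher and 1 lower call of 17, 5.88% each beside 10.8% and 11.1% of all genes tested, with a median of 0.08. ICMT, which methylates the prenylated cysteine, had 148, 149.8 and 161 CPM in control and 130.1, 122 and 119 CPM in shikonin (log2 fold change -0.31, adjusted p = 0.00705 by edgeR), a call kept without any one library. RCE1, the protease of the step before, rose from 44.9 ± 1.04 to 53.6 ± 3.97 CPM (0.25, adjusted p = 0.0368), held without shikonin replicate 3 only (0.00465). COQ2, the prenyltransferase of ubiquinone synthesis, had 4.42, 6.58 and 5.26 CPM against 8.29, 7.04 and 7.80 CPM (0.51, adjusted p = 0.0587), not called. Of 6 oxysterol and steroid enzymes, 4 were tested and 0 called by edgeR, DESeq2 or limma-voom, with 1, SULT2B1, higher at an unadjusted p under 0.05 in each (edgeR log2 fold change 0.61, adjusted p = 0.0999). By that unadjusted rule 2246 of all 13548 genes were higher in edgeR. CH25H and CYP7B1 were listed at 0.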
